A study of Homo sapiens with 4 samples.

Results

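The 10 genes described here encode secreted ligands of the TGF-beta superfamily: the stress-induced cytokine GDF15, the inhibin beta subunits INHBE and INHBA, the 3 TGF-beta isoforms TGFB1, TGFB2 and TGFB3, the bone morphogenetic proteins BMP2, BMP4 and BMP6, and GDF11. They were listed by name out of the 57820 gene identifiers counted in each library. All 10 matched an identifier and all 10 passed the filter on low counts. The list was chosen by name and with the measured values of this same contrast known, the library labelled ARID1B shRNA against wild type. The ligand values below are therefore a description and carry no test.

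The RNA came from Daoy, an established cell line of human medulloblastoma, a tumour of the cerebellum. In 1 library the labels name a short hairpin RNA (shRNA) against ARID1B, a subunit of the SWI/SNF chromatin remodelling complexes, carried as a polyclonal population by a doxycycline-inducible lentiviral vector. The other 3 libraries are labelled wild type, and the series design names cells with the empty vector and parental cells as controls without saying which library is which. The labels give doxycycline at 1 µg/ml for 72 h for every library, so the wild-type cells shared the drug. The labels do not state whether the wild-type libraries are separate cultures, and p-values then measure only the spread between these libraries, which may be technical. That spread, and the wild-type mean, may also mix empty-vector with parental cells, because both are named as controls.

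TGF-beta superfamily ligands are made as precursors, cleaved by furin-type proteases and released as dimers. They bind pairs of type I and type II serine/threonine kinase receptors, which phosphorylate SMAD transcription factors: SMAD2 and SMAD3 for TGF-betas and activins, SMAD1, SMAD5 and SMAD9 for BMPs. GDF15 is a distant member that signals through GFRAL and RET, and its transcription is known to respond to the integrated stress response factors ATF4 and DDIT3. In the developing cerebellum BMPs are known to restrain the proliferation of granule cell progenitors, from which some medulloblastomas arise.

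ARID1B mRNA, the target of the shRNA, was not lower in the library that carries its label. It measured 175 CPM (TMM-scaled counts relative to library size) there, against 164, 87.9 and 72.8 CPM in wild type (log2 fold change 0.69, SE 0.46, edgeR adjusted p = 0.399). ARID1B passed as higher when wild-type library 1 was left out (1.12, edgeR adjusted p = 0.026), and a fit that removes a trend with GC content and length put it at -0.16 (0.901). Every direction below is therefore one of the library labelled ARID1B shRNA, not of a measured loss of ARID1B. That library held 8792848 reads in genes, against 12619786 to 15390106 in the wild-type libraries, and the numbers of the deposited files set it apart from the wild-type libraries, so that a batch and the shRNA cannot be told apart. Of the marker lists, neural and progenitor genes summed to 13140 CPM in the library labelled ARID1B shRNA, against 22675 to 31114 CPM in wild type, with 1 of 6 tested genes, VIM, lower. Most of that sum was FN1, a matrix gene, at 10734 CPM, against 18903 to 26759 CPM in wild type, and FN1 did not pass. NES measured 4.1 CPM, against a wild-type mean of 4.53 CPM, SOX2 1.82 against 5.25 CPM, and SOX9 54 against 39.5 CPM. The sum therefore says little about the neural genes. Granule lineage and medulloblastoma subgroup genes summed to 87.3 CPM, against 72.2 to 101 CPM in wild type, with 1 of 6 tested genes, ZIC2, higher and ATOH1 at 0 counts throughout. With the GC and length trend removed ZIC2 had a log2 fold change of 0.78 and did not pass, nor did it pass with upper-quartile scaling. VIM missed the threshold without wild-type library 2 (edgeR adjusted p = 0.0567), and ZIC2 without library 2 (0.0629) or 3 (0.0923). Fibroblast genes summed to 36.2 CPM, against 84.4 to 282 CPM, with 1 of 5 tested genes, FAP, lower. Epithelial genes summed to 390 CPM, against 231 to 333 CPM, and none of the 3 tested genes passed. Nearly all of that sum was KRT8 and KRT18, at 164 and 225 CPM, against wild-type means of 101 and 194 CPM. EPCAM, KRT19 and CDH1 went the other way, at 0.683, 0 and 0 CPM, against means of 1.08, 0.327 and 0.207 CPM. Blood and immune genes summed to 0 CPM, against 0.387 to 1 CPM, with CD3E and HBB at 0 in every library, and endothelial genes to 0.911 CPM, against 0.386 to 0.715 CPM. The part of any of these shifts in the ligand values was not tested. In bulk RNA, fewer cells that make a ligand and less RNA per cell cannot be told apart.

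GDF15 and INHBE stood far above wild type in the library labelled ARID1B shRNA, and TGFB3 and BMP4 stood below every wild-type library. The other 6 had log2 fold changes from -0.22 to 0.92. GDF15 was 192-fold and INHBE 19.2-fold above the wild-type mean, while TGFB3 was 8.5-fold and BMP4 3.37-fold below it. In all, 5 of 10 ligands lay above every wild-type library, as did 35.4% of all 17024 tested genes, 2 lay below every one, as did 37.9%, and 3 lay within the wild-type range. At an edgeR adjusted p below 0.05 the fit called 2 ligands higher, where 3.65% of tested genes were called higher, and 2 lower, where 0.834% were called lower. The ligands were picked with this contrast in view, so nothing is read from these counts. The median log2 fold change was 0.62 over the 10 ligands and -0.05 over all tested genes, and 7 of the 10 were above 0.

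**Figure D1:**
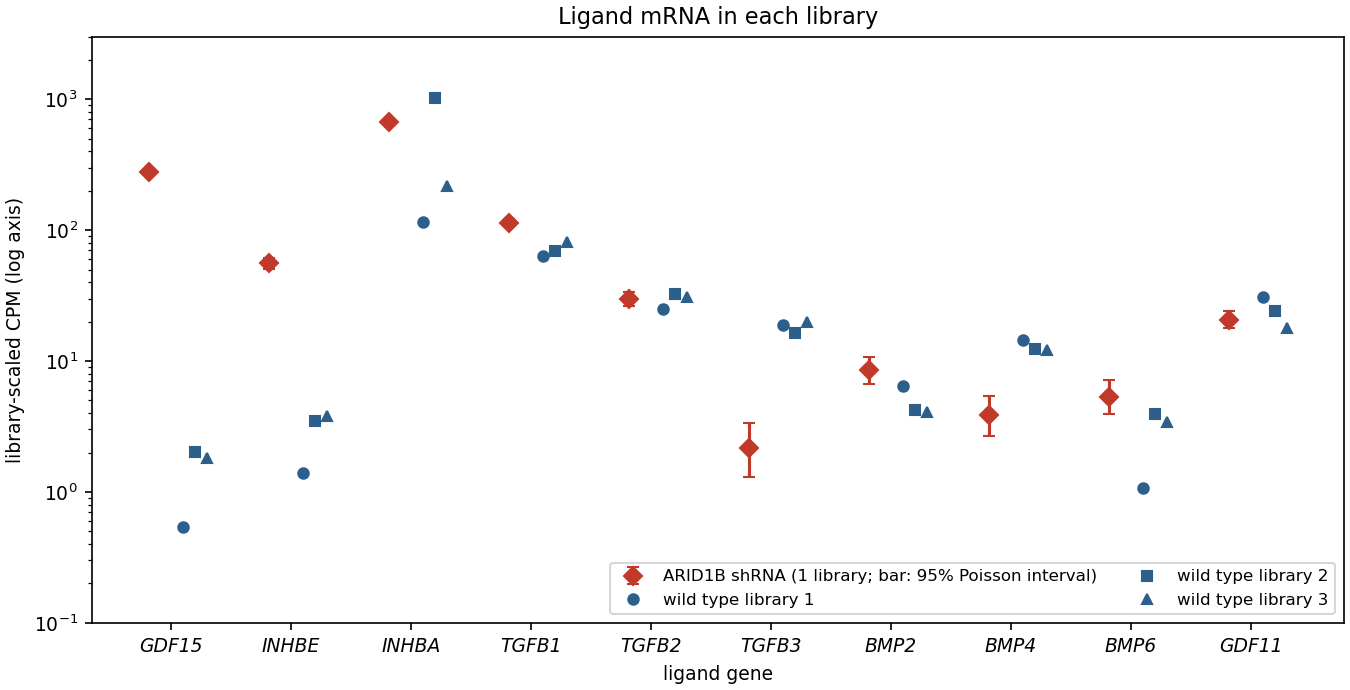
Level of each ligand mRNA as TMM-scaled CPM on a log axis, with the library labelled ARID1B shRNA as a diamond (bar: exact 95% Poisson interval) left of the 3 wild-type libraries (circle, square, triangle). GDF15 and INHBE sit far above their wild-type points, TGFB3 and BMP4 below them, and INHBA lies between its widely spread wild-type points.

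Promoter sequence was available for 8 of the 10 ligands, in 11 windows, as the 250 bases upstream of each RefSeq start site on GRCh38.p14; INHBE and BMP2 had none. The windows were searched on both strands for TATAAA (the TATA box core), GGGCGG (the GC box core), TGATGNAA (a core of C/EBP-ATF response elements), TGANTCA (the AP-1 core), CACGTG (the E-box) and GTCTAGAC (the palindromic SMAD element). TATAAA stood in 5 of the 11 windows, and 10.7% of all 35116 windows of this length in the table hold it. GGGCGG stood in 6 of 11, where 42.6% of all windows hold it, and CACGTG in 3 of 11, where 6.34% do. TGFB3 and BMP4 have more than 1 window each. TGATGNAA, TGANTCA and GTCTAGAC matched in none of the 11, and they occur in 3.14%, 6.57% and 0.182% of all windows. Such a match describes the letters in the window and does not show a bound site. The windows of GDF15 and TGFB3, the ligands furthest above and below wild type, are printed 5′ to 3′ on the gene's strand, with matches in capitals; no matches overlapped there. The GDF15 window, at chr19:18385908-18386157 on the plus strand, has TATAAA starting 29 bases upstream of the start site and GC boxes starting 119 and 70 bases upstream. TGFB3 has 2 start sites on the minus strand of chromosome 14: the downstream one at window chr14:75981996-75982245, with TATAAA starting 30 bases upstream, and the upstream one at chr14:75983012-75983261, with CACGTG starting 20 bases upstream.
GDF15 promoter: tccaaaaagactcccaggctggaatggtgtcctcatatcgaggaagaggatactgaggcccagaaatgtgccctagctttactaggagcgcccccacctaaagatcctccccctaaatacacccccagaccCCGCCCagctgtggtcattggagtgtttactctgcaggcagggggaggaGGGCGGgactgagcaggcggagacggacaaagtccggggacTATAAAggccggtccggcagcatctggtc
TGFB3 promoter, downstream start site: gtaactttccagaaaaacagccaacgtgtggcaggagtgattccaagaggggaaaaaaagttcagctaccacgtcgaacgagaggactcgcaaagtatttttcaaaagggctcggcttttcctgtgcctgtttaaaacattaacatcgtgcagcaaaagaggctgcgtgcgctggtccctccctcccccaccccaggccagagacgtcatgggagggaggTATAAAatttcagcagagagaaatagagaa
TGFB3 promoter, upstream start site: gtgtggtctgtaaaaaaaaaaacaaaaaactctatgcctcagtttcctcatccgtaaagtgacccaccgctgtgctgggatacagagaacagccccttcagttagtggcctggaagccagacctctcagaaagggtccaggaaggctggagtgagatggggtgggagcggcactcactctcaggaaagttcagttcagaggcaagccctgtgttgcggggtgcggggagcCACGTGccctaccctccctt

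GDF15 (ENSG00000130513.6, chromosome 19) encodes a cytokine that cells release under metabolic and toxic stress. It had 2454 counts, or 279 CPM (exact 95% Poisson interval 269 to 291), in the library labelled ARID1B shRNA, against 0.542, 2.01 and 1.82 CPM (7, 26 and 28 counts) in wild type, in the order of libraries 1, 2 and 3 used throughout. Every wild-type library was close to the bottom of the measurable range, and the lone library exceeded the highest of them 139-fold. On the log2 scale the difference was 7.56, over a wild-type mean of 1.46 ± 0.797 CPM (SD, n = 3). Wild-type library 1 had the fewest GDF15 reads, and the highest wild-type library exceeded the lowest 3.7-fold, a ratio that 5.56% of tested genes reached. The ratio rests on 7, 26 and 28 counts, so counting error enters it, and the genes it was ranked against were not matched for level. It was far smaller than the difference from the lone library.

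INHBE (ENSG00000139269.2, chromosome 12), the inhibin beta E subunit, forms activin E and is best known as a secreted product of the liver. INHBE measured 55.7 CPM (interval 50.9 to 60.9, 489 counts) in the library labelled ARID1B shRNA, against 1.39, 3.47 and 3.83 CPM (18, 45 and 59 counts) in the wild-type libraries. The groups did not overlap, and wild-type library 1 was again the lowest. The log2 difference was 4.25, and the lone library exceeded the highest wild-type library 14.5-fold. INHBA (ENSG00000122641.9, chromosome 7), the beta A subunit of activin A, behaved otherwise. It measured 674 CPM (interval 657 to 691) in the library labelled ARID1B shRNA, against 116, 1022 and 219 CPM in wild type. The lone library fell inside this range, below library 2 and above libraries 1 and 3. The wild-type libraries differed 8.78-fold for INHBA, a ratio that only 1.71% of tested genes reached. Its log2 fold change of 0.57 rested on which wild-type libraries entered: it was 0.12 without library 1, 2.02 without library 2 and 0.23 without library 3. Taken per kilobase of exon, INHBE made up 18.5% of the summed INHBA and INHBE signal in the library labelled ARID1B shRNA, against 3.19%, 0.927% and 4.6% in the wild-type libraries.

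The 3 TGF-beta isoforms share receptors and differ in where they are made. TGFB3 (ENSG00000119699.3, chromosome 14) had 19 counts, or 2.16 CPM (interval 1.3 to 3.38), in the library labelled ARID1B shRNA, against 19, 16.4 and 19.8 CPM (245, 213 and 304 counts) in wild type. The wild-type libraries lay close together, within a ratio of 1.2, and the lone library stood 7.6-fold below the lowest of them. Its log2 fold change was -3.08. The exons of TGFB3 overlap those of an antisense gene, TGFB3-AS1, over 3.32% of their bases; that gene had 0 counts in the library labelled ARID1B shRNA and 0, 1 and 0 in wild type. TGFB1 (ENSG00000105329.5, chromosome 19), the isoform best known from tumours and immune regulation, measured 114 CPM (interval 107 to 122) in the library labelled ARID1B shRNA, against 63.1, 69.7 and 80.8 CPM in wild type. The lone library was above all 3 as measured, with a log2 fold change of 0.68, and this direction turned to -0.63 once a trend with GC content and length was removed. TGFB1 shares 6.64% of its exon bases with HNRNPUL1 on the opposite strand, and the strand setting of the counting is not given in the sources used here. TGFB2 (ENSG00000092969.7, chromosome 1) measured 29.6 CPM (interval 26.1 to 33.4) in the library labelled ARID1B shRNA, against 25.1, 32.6 and 30.6 CPM. The lone library lay within the wild-type range, and the log2 fold change was 0.01. A transcript inside its exons, TGFB2-OT1, covers 26.6% of its exon bases on the same strand and was not counted apart.

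The summed TGF-beta signal per kilobase of exon was 41.5 CPM per kb in the library labelled ARID1B shRNA, against 28.2, 31.2 and 34.9 CPM per kb in wild type. TGFB3 made up 1.06% of that sum in the library labelled ARID1B shRNA, against 13.7%, 10.7% and 11.5% in wild type. Once the trend with GC content and length was taken out, the sum turned lower, at 24.9 CPM per kb against 33.6, 42.9 and 34.3 CPM per kb in wild type. TGFB3 then made up 1.82% of it, against 11.4%, 7.67% and 11.6%, so that its share was below each wild-type library on both scales and the direction of the sum depended on the scale.

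Of the BMP genes, BMP4 (ENSG00000125378.11, chromosome 14), a regulator of patterning and differentiation in the nervous system, had 34 counts, or 3.87 CPM (interval 2.68 to 5.41), in the library labelled ARID1B shRNA, against 14.6, 12.3 and 12.2 CPM in wild type (188, 160 and 188 counts). The groups did not overlap, the lone library lay 3.16-fold below the lowest wild-type library, and the log2 fold change was -1.75. BMP2 (ENSG00000125845.6, chromosome 20), the closest paralogue of BMP4, ran the other way. It measured 8.54 CPM (interval 6.72 to 10.7, 75 counts) in the library labelled ARID1B shRNA, against 6.43, 4.24 and 4.09 CPM in wild type. The lone value was above all 3, but the lower end of its counting interval came near wild-type library 1. BMP6 (ENSG00000153162.8, chromosome 6), known as the regulator of hepcidin in iron balance, measured 5.35 CPM (interval 3.93 to 7.12, 47 counts) in the library labelled ARID1B shRNA, against 1.08, 3.94 and 3.44 CPM. The interval reached down to wild-type library 2, and wild-type library 1 stood apart from the other wild-type libraries; the log2 fold changes of BMP2 and BMP6 were 0.80 and 0.92. BMP4 made up 22.6% of the summed signal of the 3 BMP genes per kilobase in the library labelled ARID1B shRNA, against 68.5%, 60.7% and 62.5% in wild type. The sum of these 3 BMP genes was 5.55 CPM per kb, against 6.9, 6.6 and 6.34 CPM per kb. It leaves out BMP7, which is outside the listed ligands and measured 4.2 CPM per kb, against a wild-type mean of 2.49 CPM per kb. The sum therefore does not give the direction of BMP mRNA as a whole.

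GDF11 (ENSG00000135414.5, chromosome 12), a close relative of myostatin known in mice to limit neurogenesis in the olfactory epithelium, measured 20.7 CPM (interval 17.8 to 24) in the library labelled ARID1B shRNA, against 30.8, 24 and 17.8 CPM in wild type. The lone library lay within the wild-type range, with a log2 fold change of -0.22. Its exons share 4.46% of their bases with SARNP on the opposite strand.

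Per kilobase of exon, which lets different genes be set roughly side by side, GDF15 had the highest value of the 10 ligands as measured in the library labelled ARID1B shRNA and the lowest mean in wild type. The length is that of all annotated exons merged, 2087 nt for GDF15, whose longest transcript has 1200 nt. For INHBE these lengths are 3015 and 2429 nt, and for BMP6 both are 2780 nt. The lowest places in wild type depend on which length is used. In the library labelled ARID1B shRNA the order from high to low was GDF15 (134 CPM per kb), INHBA (81.2), TGFB1 (35.3), INHBE (18.5), TGFB2 (5.75), GDF11 (2.39), BMP2 (2.37), BMP6 (1.93), BMP4 (1.26) and TGFB3 (0.44). In wild type the mean order was INHBA (54.5 ± 59.7 CPM per kb, SD, n = 3), TGFB1 (22 ± 2.76), TGFB2 (5.72 ± 0.757), BMP4 (4.23 ± 0.429), TGFB3 (3.74 ± 0.353), GDF11 (2.8 ± 0.753), BMP2 (1.37 ± 0.363), BMP6 (1.02 ± 0.548), INHBE (0.962 ± 0.437) and GDF15 (0.698 ± 0.382). The wild-type ranges of INHBA and TGFB1 overlapped, as did those of BMP4 with TGFB3, TGFB3 with GDF11, and each pair of BMP2, BMP6, INHBE and GDF15 that stood next to each other. TGFB1 and TGFB2, TGFB2 and BMP4, and GDF11 and BMP2 did not overlap. The 10 ligands summed to 283 CPM per kb in the library labelled ARID1B shRNA, against 53.4, 166 and 71.8 CPM per kb in wild type. Without GDF15 the sum was 149 CPM per kb, against 53.2, 165 and 70.9 CPM per kb, so that it then lay inside the wild-type range. The order depended on the correction: with the GC and length trend removed INHBA led in the library labelled ARID1B shRNA, at 92.2 CPM per kb, and GDF15 came next at 71.5 CPM per kb. In wild type GDF15 was then at 0.333, 1.44 and 0.848 CPM per kb, the lowest of the 10 in libraries 1 and 3 but not in library 2, where INHBE measured 1.25 CPM per kb. The share of GDF15 in the summed ligand signal was 33.5% in the library labelled ARID1B shRNA on that scale, against 0.569%, 0.876% and 1.18% in wild type.

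**Figure D2:**
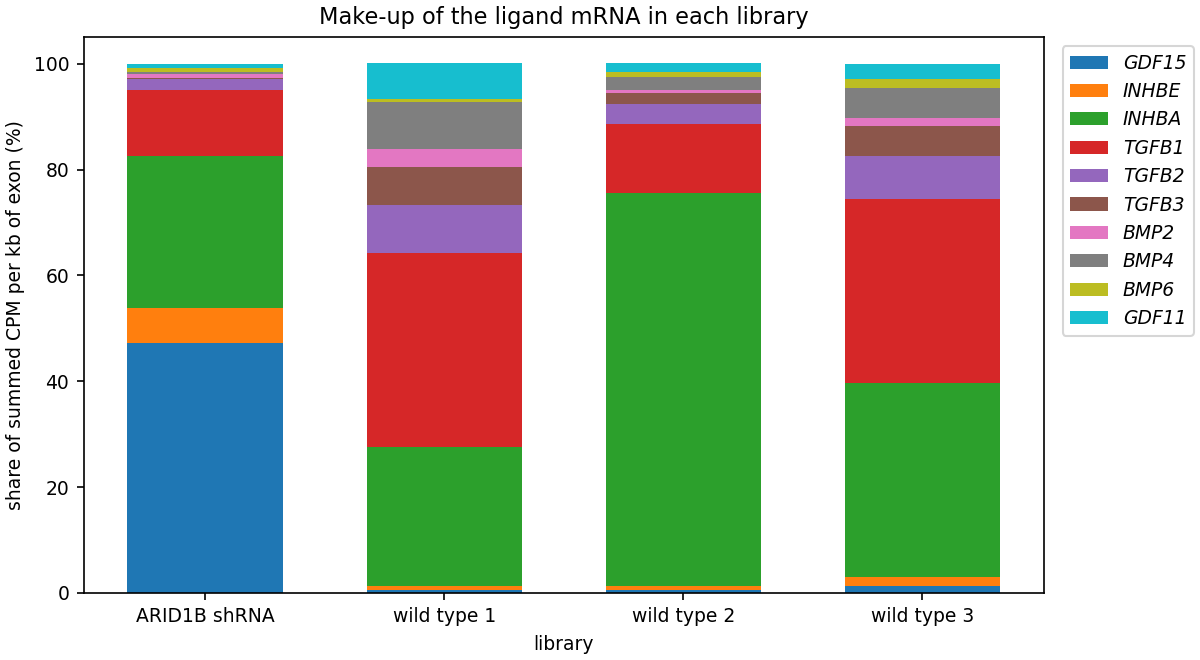
Share of each ligand in the summed CPM per kb of exon, with the library labelled ARID1B shRNA at the left and the 3 wild-type libraries to its right. GDF15 makes up 47.3% of the bar at the left and 0.486%, 0.58% and 1.21% in the wild-type libraries, where INHBA (26.3% to 74.3%) and TGFB1 (13% to 36.5%) lead. The bars are drawn as measured; after removal of the trend the bar at the left would hold 33.5% GDF15 and 43.3% INHBA.

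Genes of high GC content were higher as a body in the library labelled ARID1B shRNA, and ligands differ in GC content, so each was set beside genes like it. Among tested genes, the decile of highest GC content had a median log2 fold change of 1.32 (5th to 95th percentile -0.15 to 3.59), and 18.2% of it was called higher. GDF15 (62.9% GC) and TGFB1 (63.5% GC) fall in that decile. GDF15, at 7.56, lay above its 95th percentile, and TGFB1, at 0.68, lay below its median. With the GC and length trend of each library removed, GDF15 remained far above wild type at 6.38. INHBE (53.9% GC) lies in a decile with a median of 0.03 and kept 4.09. TGFB3 (48.9% GC) lies in one with a median of -0.08 and a 5th percentile of -1.59, and measured -3.02. BMP4 (54% GC), at -1.75, lay below the 5th percentile of its decile, -1.50, and measured -1.92 with the trend removed. TGFB1 was the ligand whose side of 0 depended on the trend: trend-adjusted levels were 58.1 CPM in the library labelled ARID1B shRNA, against 80.9, 110 and 78.5 CPM in wild type. The remaining ligands moved by at most 0.31 and kept their sign.

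**Figure D3:**
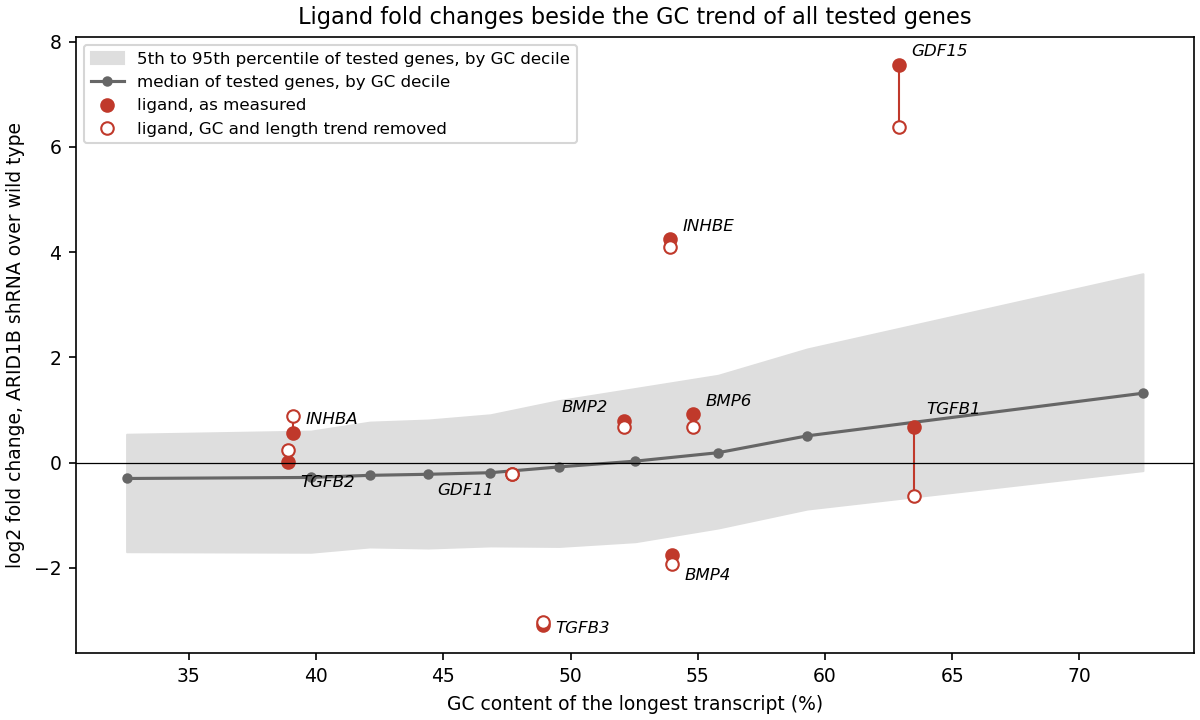
log2 fold change of each ligand, the library labelled ARID1B shRNA over wild type, against the GC content of its longest transcript; filled points are as measured, open points have the GC and length trend removed, and the grey line and band are the median and the 5th to 95th percentile of tested genes by decile of GC content. GDF15, INHBE, TGFB3 and BMP4 lie outside the band, and TGFB1 crosses 0.

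Removing single wild-type libraries could not change the direction of GDF15, INHBE, TGFB3 or BMP4, because each lay outside every wild-type library. The lone library stayed in every fit, so the removals show only how much the size of the difference depended on single wild-type libraries. The log2 fold change ranged over the 3 removals from 7.19 to 7.84 for GDF15, from 3.92 to 4.50 for INHBE, from -3.15 to -3.03 for TGFB3 and from -1.80 to -1.66 for BMP4. INHBA ranged from 0.12 to 2.02, the widest of the 10. Wild-type library 1 held the lowest wild-type value of 6 of the 10 ligands.

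**Figure D4:**
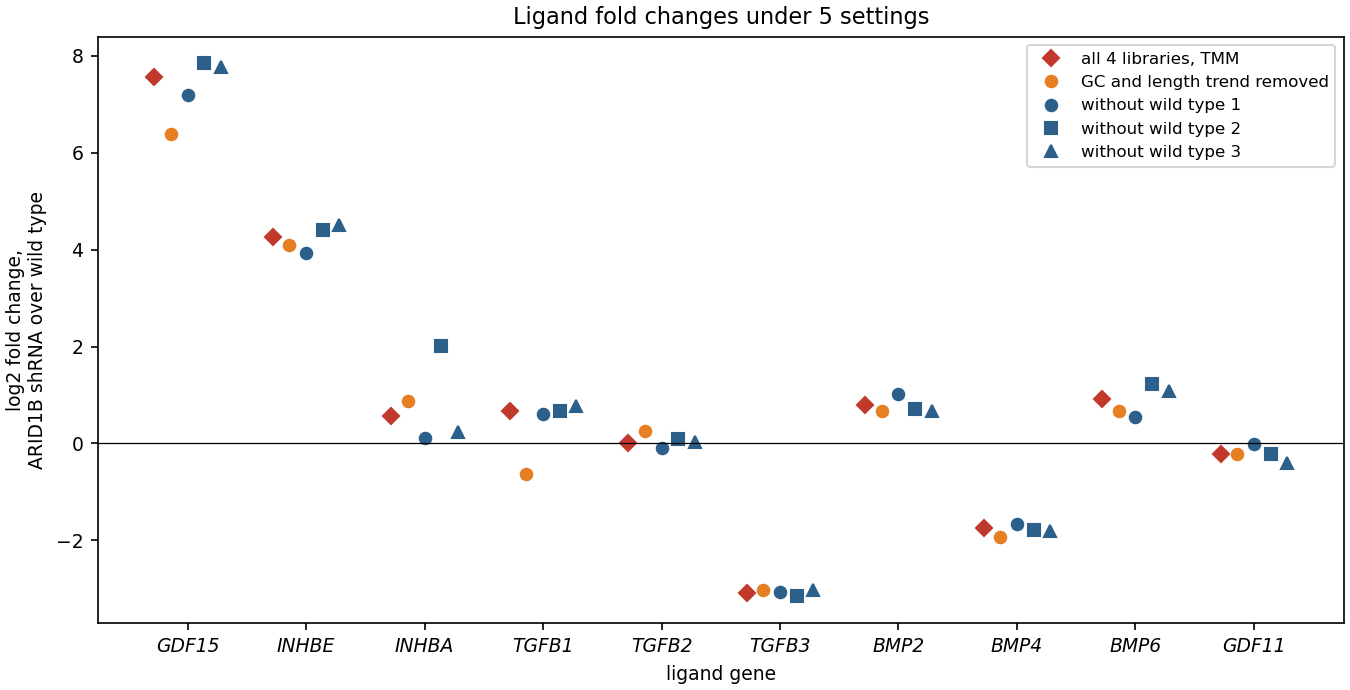
log2 fold change of each ligand, the library labelled ARID1B shRNA over wild type, from all 4 libraries (diamond), with the GC and length trend removed (orange circle) and without wild-type library 1, 2 or 3 (blue circle, square, triangle). GDF15, INHBE, TGFB3 and BMP4 keep their side of 0 in all 5, INHBA spreads from 0.12 to 2.02, and TGFB1 falls below 0 with the trend removed. Leaving out a wild-type library could not change the side of GDF15, INHBE, TGFB3 or BMP4, which lay outside every wild-type library.

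The other genes of the pathway are not among the 10 ligands and were read from the same fit, which takes its 2 residual degrees of freedom from wild type and gives the lone library the same spread. Of 122 genes in 9 lists, 120 matched an identifier and 95 were tested; 11 rose, 2 fell and 82 did not pass, where 4.48% of all tested genes passed in either direction. The 95 had a median log2 fold change of 0.18, against -0.05 over all tested genes. The lists were written with earlier results of these data known, so their counts are no independent evidence.

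None of the other ligands or receptors passed. Of 23 other superfamily ligands 21 matched and 8 were tested, with 0 rising and 0 falling and a median of 0.31; LEFTY2, GDF1, GDF3, BMP3, BMP10 and BMP15 had 0 counts in every library. BMP7, the one with the highest CPM and a BMP made in many epithelia, measured 22.8 CPM in the library labelled ARID1B shRNA, against 13.5 ± 3.37 CPM in wild type (edgeR adjusted p = 0.225, log2 fold change 0.76). INHBB, the activin B subunit, measured 1.59 CPM, against 0.417 ± 0.173 CPM (edgeR adjusted p = 0.141). Of 12 type I and II receptors 11 were tested and none passed; their log2 fold changes ran from -0.74 for BMPR1B to 0.75 for ACVR1B, with a median of -0.07. TGFBR1 and TGFBR2, the receptor pair of the TGF-betas, measured -0.38 and 0.67 on the log2 scale (edgeR adjusted p = 0.403 and 0.218). ACVR1B, the type I receptor of activins, measured 61.3 CPM, against 36.3, 32.7 and 40 CPM in wild type, above all 3 but short of the threshold (edgeR adjusted p = 0.0948).

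GFRAL, the receptor through which GDF15 is known to act, had 0 counts in all 4 libraries, which allows up to 0.342 CPM in the library labelled ARID1B shRNA and 0.195 to 0.232 CPM in wild type (3 counts each, counting error only). RET, its signalling partner and also the receptor of GDNF ligands, measured 6.83 CPM, against 1.47, 1.85 and 0.845 CPM in wild type (log2 fold change 2.30, SE 0.47, edgeR adjusted p = 0.0558), and passed once wild-type library 1 was left out (0.0316). The co-receptor TGFBR3, or betaglycan, which presents TGF-beta to its receptors, measured 10.8 CPM, against 19.5, 66.5 and 55.8 CPM. It lay below every wild-type library without passing (edgeR adjusted p = 0.18, log2 fold change -2.13), and passed only without wild-type library 1 among the 3 removals (0.00397). RGMB, a BMP co-receptor, measured 45.2 CPM, against 21 ± 3.13 CPM (edgeR adjusted p = 0.0621, log2 fold change 1.10), and passed with the GC and length trend removed (1.16, 0.0461). Over the 6 tested of 9 co-receptors 0 rose and 0 fell, with a median of 0.11; HJV and CRIPTO had 0 counts throughout.

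**Figure D5:**
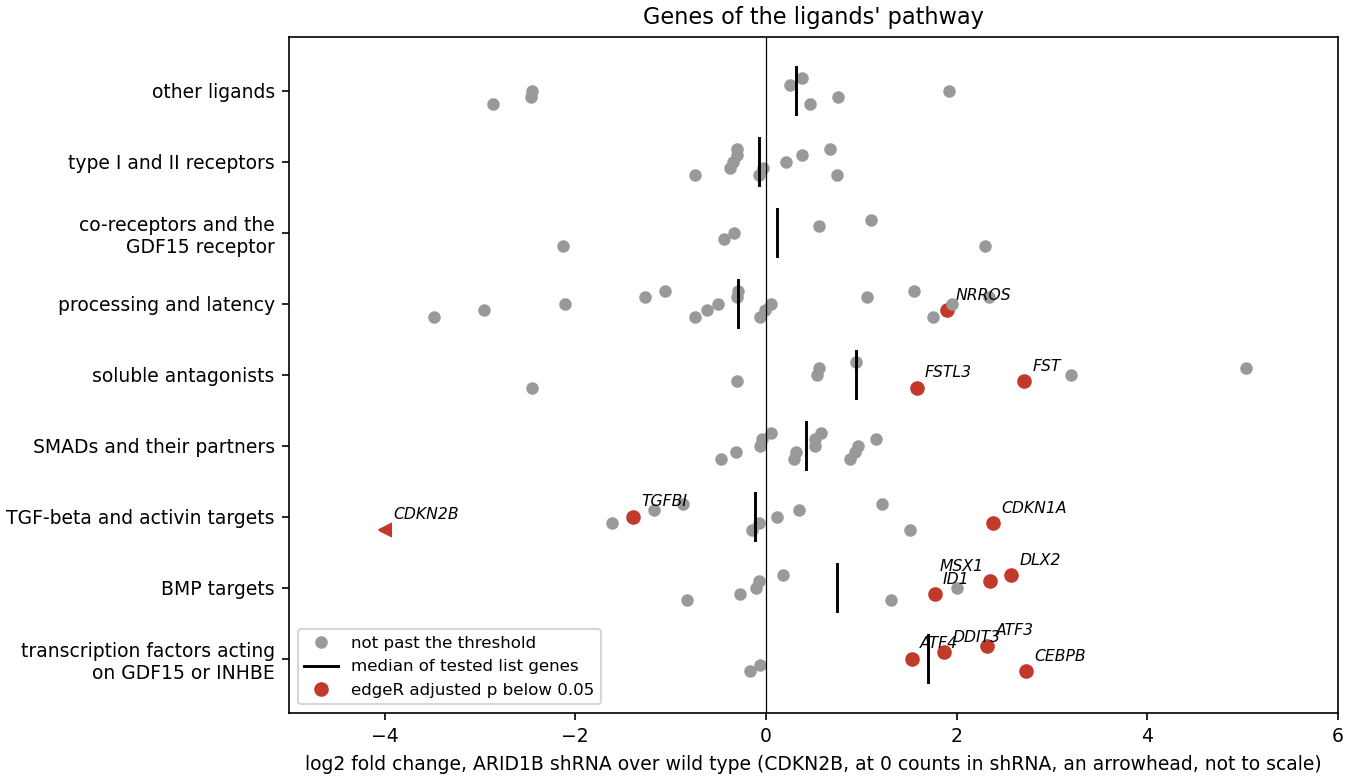
log2 fold change, the library labelled ARID1B shRNA over wild type, of each tested gene of 9 pathway lists; red points passed an edgeR adjusted p of 0.05, grey points did not, and black bars are list medians. No receptor or SMAD passed, FST and FSTL3 rose among the antagonists, and 4 of 6 transcription factors rose; CDKN2B had 0 counts in the library labelled ARID1B shRNA and is drawn as an arrowhead at the left, not to scale.

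Both antagonists that rose bind activins. FST, or follistatin, rose to 8.43 CPM in the library labelled ARID1B shRNA, against 1.16, 1.31 and 1.36 CPM in wild type (log2 fold change 2.71, SE 0.34, edgeR adjusted p = 0.0244). FSTL3, its relative, rose to 38.4 CPM, against 12.2, 12.8 and 13.5 CPM (1.58, SE 0.21, edgeR adjusted p = 0.0273). The wild-type libraries lay close together for both. FST held with the trend removed (2.87, edgeR adjusted p = 0.0203), whereas FSTL3, a gene of 64.4% GC, measured 0.11 (0.853). Without wild-type library 2 or 3 neither passed (edgeR adjusted p = 0.0565 and 0.0571 for FST, 0.0567 and 0.0523 for FSTL3). Of the 17 antagonists 9 were tested, 2 rose and none fell, with a median log2 fold change of 0.95. SOST, which encodes the WNT antagonist sclerostin, had 24 counts in the library labelled ARID1B shRNA, against 3, 0 and 0 in wild type (edgeR adjusted p = 0.0619), and passed without library 1 (0.00952). WFIKKN1, an antagonist of myostatin and GDF11, measured 2.28 CPM, against 0.232, 0 and 0.455 CPM (edgeR adjusted p = 0.123).

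Among 19 genes of ligand processing and latency, all tested, 1 rose and none fell, with a median of -0.29. NRROS, which tethers latent TGF-beta to the cell surface, rose to 17.2 CPM, against 4.42, 3.86 and 5.46 CPM in wild type (log2 fold change 1.90, SE 0.30, edgeR adjusted p = 0.0351). NRROS no longer passed with the trend removed (1.14, edgeR adjusted p = 0.0652), nor without wild-type library 2 (0.0644) or 3 (0.0585). LTBP1, the binding protein that holds latent TGF-beta in the matrix, measured 201 CPM, against 335 ± 18.4 CPM (-0.74, edgeR adjusted p = 0.0673), and passed as lower with the trend removed (-0.88, 0.0438). LTBP3, another such protein, measured 261 CPM, against 85.9, 49.9 and 96.5 CPM (1.75, edgeR adjusted p = 0.0593), passed without wild-type library 2 (0.0498) and turned to -0.37 with the trend removed (0.317).

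None of the 14 SMADs and SMAD partners passed; their log2 fold changes ran from -0.47 to 1.15 with a median of 0.42. The inhibitory SMADs, which BMP and TGF-beta signalling are known to induce, measured 66.2 CPM for SMAD7, against 34.2, 34.4 and 39.1 CPM (edgeR adjusted p = 0.0621, log2 fold change 0.88), and 13.7 CPM for SMAD6, against 8.29, 4.71 and 5.52 CPM (1.15, 0.139). Both lay above every wild-type library, and with the trend removed they measured 0.19 and 0.39; SMAD6 passed when wild-type library 1 was left out (edgeR adjusted p = 0.0485).

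The TGF-beta and activin target list moved in both directions, with 1 of 12 rising, 2 falling and a median of -0.11. TGFBI, a matrix protein named for its induction by TGF-beta, fell to 2684 CPM in the library labelled ARID1B shRNA, against 7602, 6895 and 6622 CPM in wild type (log2 fold change -1.39, SE 0.17, edgeR adjusted p = 0.0222). TGFBI also passed with wild-type library 1 or 3 left out and with the trend removed (-1.47, edgeR adjusted p = 0.0203), but not without library 2 (0.0609). CDKN1A, the CDK inhibitor p21, which stress signals are also known to induce, rose to 350 CPM, against 67.1, 86.7 and 48.3 CPM (2.38, SE 0.30, edgeR adjusted p = 0.0274); it measured 1.82 with the trend removed (0.126). CDKN2B, the CDK inhibitor p15, had 0 counts in the library labelled ARID1B shRNA, against 114, 267 and 125 counts in wild type, at least 36.6-fold lower than the wild-type mean of 12.5 ± 7.01 CPM at a floor of 3 counts (edgeR adjusted p = 0.0432). MTAP, which lies near it, had 0 counts there too, against 41, 102 and 44, with a log2 fold change of -8.86. MTAP did not pass in the main fit, but did in DESeq2, with no filter on low counts and without wild-type library 1. Whether the missing reads of CDKN2B and MTAP share a cause was not tested. In limma-voom CDKN2B did not pass either. CDKN2B missed the threshold with the trend removed (edgeR adjusted p = 0.0577) or wild-type library 3 left out (0.0703). CCN2, a matricellular protein, measured 481 CPM, against 219, 160 and 128 CPM, above all 3 but short of the threshold (edgeR adjusted p = 0.0533). CCN2 passed without wild-type library 1 (0.00398), with RLE scaling (0.0488), with no filter on low counts, in limma-voom (0.0467) and in DESeq2 (0.000388).

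Of 10 BMP targets 3 rose and none fell, with a median of 0.74. ID1, an inhibitor of differentiation factors that BMPs induce directly, rose to 96.8 CPM, against 31.5, 24.9 and 28.4 CPM in wild type (log2 fold change 1.77, SE 0.20, edgeR adjusted p = 0.0206). The homeobox genes DLX2 and MSX1 rose by 2.57 and 2.35 on the log2 scale (edgeR adjusted p = 0.0183 and 0.0262). With the trend removed ID1 and DLX2 passed (1.17 and 1.79, edgeR adjusted p = 0.0384 and 0.0354) and MSX1 did not (1.58, 0.0885); MSX1 also missed without wild-type library 3 (0.0587). ATOH8, a basic helix-loop-helix gene that BMPs induce, measured 47.5 CPM, against 19.7, 6.56 and 9.42 CPM, above all 3 without passing (edgeR adjusted p = 0.113), and passed when library 1 was left out (0.0038).

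Of 6 transcription factors known to act on GDF15 or INHBE 4 rose, and the list had a median of 1.70. ATF3 rose to 262 CPM, against 53.2, 61.9 and 42 CPM in wild type (edgeR adjusted p = 0.0183, log2 fold change 2.32). ATF4 rose to 809 CPM, against 262, 302 and 276 CPM (1.53, edgeR adjusted p = 0.0183), and DDIT3, or CHOP, to 29.2 CPM, against 7.67, 7.1 and 9.16 CPM (1.87, 0.0274). All 3 stood well above each wild-type library, and removal of the trend left their edgeR adjusted p at 0.0127, 0.0381 and 0.019; DDIT3 missed without wild-type library 2 (0.0565). CEBPB, a bZIP partner of these factors, rose to 158 CPM, against 13.8, 31.7 and 26.1 CPM (2.73, edgeR adjusted p = 0.036). CEBPB missed the threshold with the trend removed (0.93, edgeR adjusted p = 0.456) or with library 2 (0.0608) or 3 (0.123) left out. EGR1, an early growth response factor, measured 33.6 CPM, against 37.5, 33.3 and 42.6 CPM in wild type, inside the wild-type range (log2 fold change -0.17).

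Of 40 neighbours of the 10 ligands, 2 on each side of each ligand in the RefSeq order, 2 rose, 1 fell and 37 did not pass, where 4.48% of all tested genes passed in either direction. Around GDF15, SSBP4 rose (edgeR adjusted p = 0.0389, log2 fold change 2.72), and PGPEP1, LSM4 and ISYNA1 did not pass; SSBP4 measured 0.64 with the trend removed (0.152) and missed without wild-type library 2 (0.0538). Around TGFB3, none of TTLL5, ERG28, IFT43 and GPATCH2L passed; ERG28 measured 30.6 CPM, against 62.5 ± 5.3 CPM in wild type (log2 fold change -1.03, edgeR adjusted p = 0.0556). CDKN3, next to BMP4, measured 17.2 CPM, against 33.8 ± 8.25 CPM (-0.97, edgeR adjusted p = 0.145). Around BMP6, TXNDC5 rose (3.55, edgeR adjusted p = 0.0267) and DSP, a desmosome protein, fell (-1.24, 0.0326); neither passed without wild-type library 2 (0.0538 and 0.0677) or 3 (0.0531 and 0.0502).

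By likeness of profile over the 4 libraries, among 13809 protein-coding genes tested outside the list, the genes closest to GDF15 were C4orf48, KLHDC7B and CCDC85B, at root mean square differences of 0.77, 0.80 and 0.80 in centred log2 CPM. C4orf48 measured 15.4 CPM in the library labelled ARID1B shRNA, against 0, 0 and 0.065 CPM in wild type, and KLHDC7B 30.5 CPM, against 0, 0.617 and 0.78 CPM. Likeness was read without removal of the GC and length trend. With it removed, the log2 fold changes of C4orf48, KLHDC7B and CCDC85B went from 8.82, 5.97 and 6.05 to 6.52, 4.11 and 4.14. The closest to TGFB3 were SPATA12 (0.04), FAP (0.10) and ADAMTS16 (0.12). SPATA12 had few reads, at 0 CPM in the library labelled ARID1B shRNA, against 1.24, 1.08 and 1.3 CPM in wild type. Its fitted log2 fold change was -6.93. The log2 CPM took a prior count of 2, which shrinks the differences of genes with few reads. FAP measured 2.16 CPM in the library labelled ARID1B shRNA, against 15.7, 16.1 and 18.2 CPM in wild type, and ADAMTS16 3.64 CPM, against 30.8, 23 and 27 CPM. With 1 library in an arm, such likeness describes these 4 libraries alone.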

How the data were processed

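Poly(A)-selected RNA of 4 Daoy libraries was read in single 100-nucleotide reads, per the labels. The deposited values were raw counts per gene; the submitters' processing notes name bcl2fastq, HISAT2, HTSeq and DESeq2 with GRCh37 (hg19), and their versions, strand setting and annotation were not given in the sources used here. Rows naming no gene (19.6% of reads in the library labelled ARID1B shRNA, 21.7% to 22.2% in wild type) were left out. Symbols matched 51996 of 57820 identifiers (89.9%). Exon length, GC content and overlaps come from GENCODE 29 on GRCh38, so gene coordinates are not given; promoters and gene order come from RefSeq.

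edgeR 4.0.16 (R 4.3.3) kept 17024 genes (filterByExpr, minimum count 10, total 15), with TMM scaling, the quasi-likelihood test with robust shrinkage, and Benjamini-Hochberg adjustment over all tested genes at 0.05. The standard error is the absolute log2 fold change over the root of F. No libraries were duplicates (chi-square per degree of freedom 25.8 or more in each pair). Alternatives were RLE or upper-quartile scaling, no filter, DESeq2 1.42.0, limma-voom (3.58.1), leaving out each wild-type library, and removal of a per-library loess trend with GC content and length (span 0.3). Floors of 3 counts and exact 95% Poisson intervals cover counting error only.

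The ligands and lists were chosen with earlier results of these data known. Named besides the ligands were receptors, co-receptors, SMADs, transcription factors and other ligands of the lists, up to 4 genes of smallest p in each other list, the 3 genes nearest in profile to GDF15 and TGFB3, ARID1B and MTAP; flanking, overlapping and marker genes were named after their values were seen. 1 gene of the lists is not reported here.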

Additional observations from a re-analysis of the deposited data

How the results depend on the processing

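The count of called genes depended on the fit. Against 763 of 17024 genes, 3226 passed with no filter on low counts, 1734 with DESeq2 and between 157 and 1189 with 1 wild-type library left out (157 without library 2, 478 without library 3, 1189 without library 1); the no-filter fit took an infinite prior on the spread, against a median of 3.83 degrees of freedom with the filter. Of the pathway genes, 13 passed, against 37 with no filter, 30 with DESeq2 and between 8 and 23 with 1 wild-type library left out. Removal of the GC and length trend left 540 genes, 335 higher and 205 lower, a share of 62% higher against 81.4% as measured; upper-quartile scaling gave 74.2% and no filter 70.5%.

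Of 90 ligand values under 9 alternatives, 83 kept their sign and moved by less than the wild-type spread. That measure is loose for INHBA, whose wild-type libraries differed 8.78-fold. Its log2 fold change of 0.57 counted as unmoved at 0.12 without wild-type library 1, 2.02 without library 2 and 1.19 in limma-voom. TGFB1 turned to -0.63 with the trend removed. TGFB2 turned to -0.11 with upper-quartile scaling, -0.02 with no filter and -0.09 without wild-type library 1, with a range of -0.09 to 0.10 over the wild-type libraries left out; upper-quartile scaling puts the median of all genes at -0.17, against -0.05. GDF15, TGFB2 and BMP4 moved to 6.38, 0.25 and -1.92 with the trend removed. Of 396 values of other named genes, 34 lost the threshold, 37 passed it and 2 changed sign, both with the trend removed (ARID1B at -0.16 and LTBP3 at -0.37). The causes were not tested. No paired analysis was possible because the arm labelled ARID1B shRNA has 1 library without a number. Ligands with few reads, TGFB3, BMP4 and BMP6 in the lone library and GDF15 in wild type, are limited by counting.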
